A study of Mus musculus with 18 samples.

Results

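The integrated stress and amino acid response was followed through 10 genes of the mouse genome in RNA-seq libraries of skeletal muscle: Atf4, Atf5, Ddit3, Trib3, Asns, Psat1, Phgdh, Sesn2, Chac1 and Mthfd2. They were chosen by name as transcription factors and targets of this response. All 10 were found among the 12558 genes of the deposited table, and all 10 passed a filter of at least 1 CPM (counts scaled to a common library size) in at least 3 libraries, as did 12524 genes in all. The study holds 18 libraries in 6 groups of 3, from mice kept for 10 weeks on their diet. Wild-type mice received Normal Chow (WT-NC), High Fat Diet (WT-HFD), Normal Chow with the drug AQ in the drinking water (WT-NC-AQ) or High Fat Diet with AQ (WT-HFD-AQ). The other 2 groups were both fed High Fat Diet (HFD) without AQ: a wild type-transgenic control (HFD-WT) and mice transgenic for the nuclear receptor NURR1, encoded by Nr4a2 (HFD-Nurr1-mTg). The promoter and line of the transgene, the strain, age and sex of the mice, the dose of AQ and the muscle taken were not given in the sources used here. Replicates are called biological in the labels, and whether each came from its own mouse is not stated further.

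The response works through translation. Kinases that sense a lack of amino acids, unfolded protein in the endoplasmic reticulum, haem deficiency or double-stranded RNA phosphorylate the initiation factor eIF2, which slows protein synthesis in general while allowing translation of the mRNAs of ATF4, ATF5 and CHOP, the product of Ddit3. ATF4 pairs with C/EBP proteins, CHOP among them, and binds composite C/EBP-ATF elements at genes for amino acid synthesis, transport and tRNA charging. In skeletal muscle the response is best known from mitochondrial disease and fasting. Since much of the control of ATF4, ATF5 and CHOP is translational, a transcript level does not give the amount of these proteins.

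The 250 bases before each gene's RefSeq transcription start (GRCm38.p6) were searched on both strands for the composite element core, TGATGNAA, and for the variant TGACGNAA. All 10 genes had a window, and Atf5 and Psat1 had 2 each. TGATGNAA was present for 2 of the 10 genes, Chac1 and Asns, against 3.91% of 27025 genes and 3.45% of 32851 windows. TGACGNAA was present for Chac1 alone of the 10, against 1.60% of genes and 1.39% of windows. The short CCAAT box was present for 8 of the 10 genes, against 37.5% of genes and 33.8% of windows, and AAAGGTCA, the site NURR1 binds as a monomer, for 0 of the 10, against 1.55% of genes and 1.34% of windows. A match describes letters in the window and is not a measured site. In the GENCODE annotation Asns, on the minus strand, reaches chr6:7693254, so its match lies before the RefSeq start but inside the GENCODE gene. The Chac1 and Asns stretches are printed because these are the genes with the composite core, and Chac1 is also the most variable of the 10; capitals mark matches to TGATGNAA or TGACGNAA on either strand. The Chac1 stretch, chr2:119350992-119351228 on the plus strand, runs from position -250 to position -14 relative to the start and holds TGACGCAA at its 5′ end and TTGCATCA at positions -193 to -186.
Chac1: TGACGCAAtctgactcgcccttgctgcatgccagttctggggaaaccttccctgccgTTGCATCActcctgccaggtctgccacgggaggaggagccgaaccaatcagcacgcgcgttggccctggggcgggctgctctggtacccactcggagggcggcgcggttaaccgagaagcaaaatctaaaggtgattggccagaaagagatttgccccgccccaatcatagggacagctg
Asns (chr6:7693214-7693243 on the minus strand, positions -34 to -5): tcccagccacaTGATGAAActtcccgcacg

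Library depth, recovered from the table as whole reads, ran from 10404895 to 16082994, so that 3 reads corresponded to 0.191 to 0.277 CPM. Defining myofibre markers were high in every library (Acta1 between 26075 and 47969 CPM, Ckm between 19100 and 27691 CPM). Nr4a2 was at 18.8, 30.1 and 19.8 CPM in the 3 HFD-Nurr1-mTg libraries and between 0.828 and 4.79 CPM in the other 15. WT-HFD replicate 2 stood apart: its summed heat shock transcripts reached 1010 CPM against 460 to 680 CPM in the other libraries, and its Atf3 level was 245 CPM. Differences of Psat1 and Phgdh in HFD against chow and AQ on HFD, of Atf3 and of Dnajb9 are also given without it. Interaction values of single genes and the marker medians are given only with it. These are bulk libraries, in which fewer cells of a type and less RNA per cell cannot be told apart.

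Divided by the longest annotated transcript, the 10 genes fell into a high and a low class. On this per-kilobase scale the mean level over the 18 libraries was 89.2 CPM per kb for Atf4, 49.0 for Atf5, 37.9 for Chac1 and 16.3 for Ddit3. It was 3.00 CPM per kb for Mthfd2, 1.34 for Psat1, 0.932 for Sesn2, 0.790 for Trib3, 0.785 for Asns and 0.392 for Phgdh. The transcription factors and the glutathione-degrading enzyme gene Chac1 were therefore well covered, while the amino acid synthesis enzymes rested on few reads: 16 to 46 for Asns, 22 to 94 for Psat1 and 2 to 24 for Phgdh in a library. Trib3, on 12 to 33 reads, and Sesn2, on 25 to 58 reads, were also thinly covered.

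**Figure D1:**
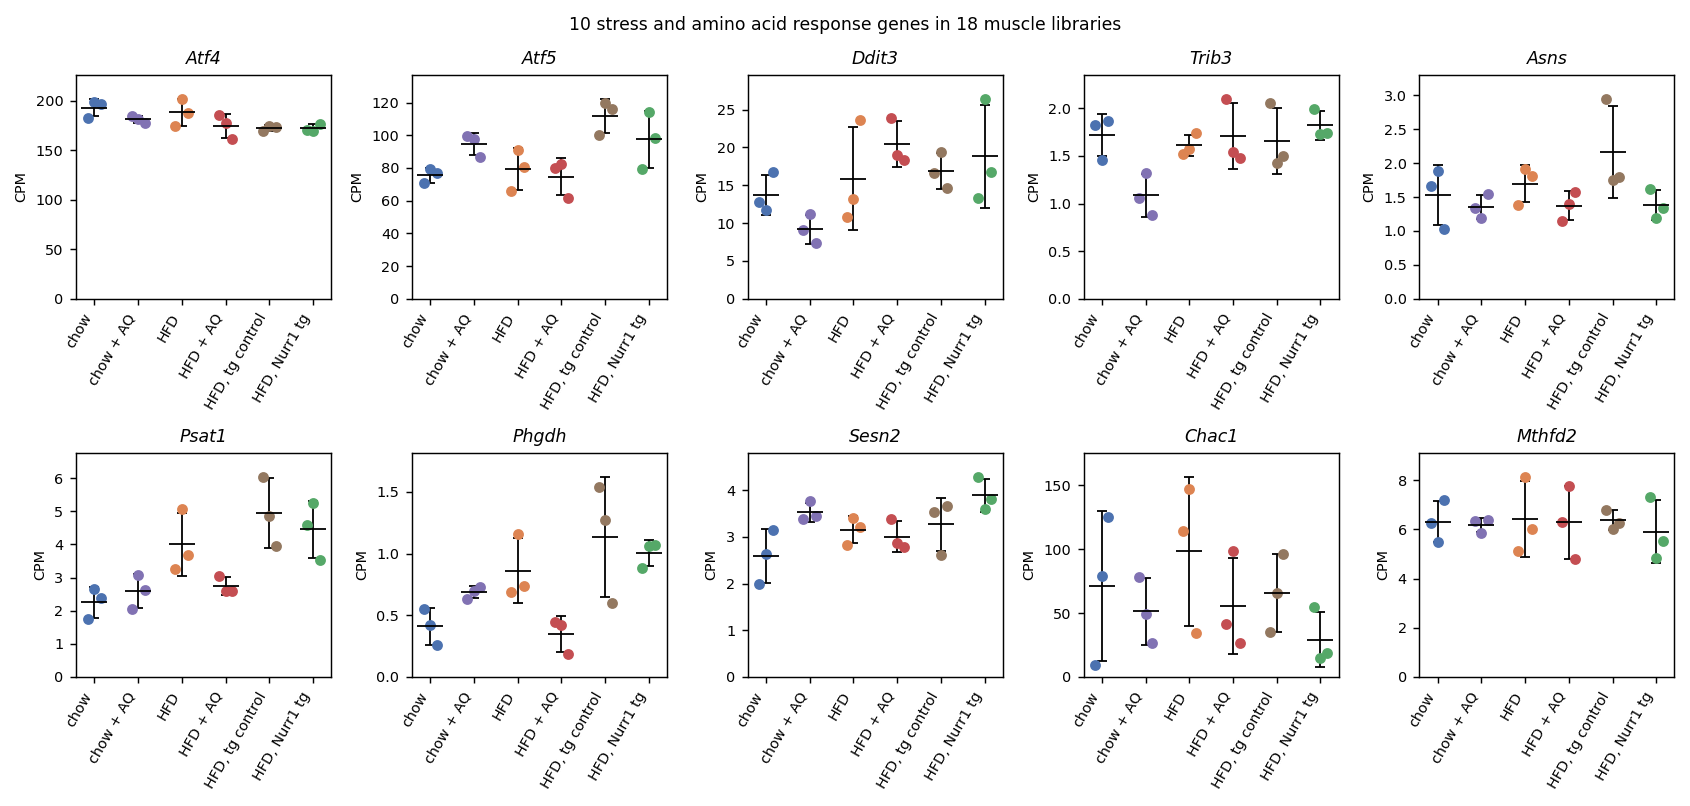
CPM of each of the 10 genes (vertical axes, starting at 0) in the 6 groups (horizontal axes); points are the 3 libraries of a group, the bar their mean and the whiskers 1 SD. Atf4 stays between 161 and 202 CPM in all libraries, whereas Chac1 runs from 9.28 to 147 CPM.

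Atf4 encodes the transcription factor at the centre of the response, and its transcript was among the steadiest in the table. It was measured at 183, 199 and 196 CPM on chow, 174, 202 and 188 CPM on HFD, 185, 177 and 161 CPM on HFD with AQ and 185, 181 and 177 CPM on chow with AQ. In the transgenic control it was at 169, 175 and 173 CPM and in the Nurr1 transgenic mice at 170, 169 and 177 CPM. The highest library exceeded the lowest by 1.25-fold, and in the order of group means, from WT-NC down to HFD-Nurr1-mTg, every neighbouring pair of groups overlapped. Within groups its SD on the log2 scale was 0.0687, smaller than that of all but 4.40% of the 12524 genes (median gene 0.151). The 95% intervals of its difference were narrow: between -0.17 and 0.10 (log2) for HFD against chow, -0.25 and 0.03 for AQ on HFD, -0.23 and 0.05 for AQ on chow, and -0.14 and 0.14 for the transgene.

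Chac1, which encodes an enzyme that breaks down glutathione, was the reverse. Its levels were 9.28, 78.9 and 125 CPM on chow, 114, 147 and 34.2 CPM on HFD, 41.3, 98.3 and 27.0 CPM on HFD with AQ and 78.6, 49.4 and 26.4 CPM on chow with AQ. The transgenic control gave 35.5, 66.0 and 96.1 CPM and the Nurr1 transgenic mice 54.5, 14.9 and 18.6 CPM. All groups overlapped with their neighbours in the order of means, and the highest library exceeded the lowest by 15.9-fold, on 117 to 1954 reads. The within-group SD was 1.14 on the log2 scale, and only 4 of the 12524 genes had a larger one (Myh3, Cish, Atf3 and Socs1, named after their values were seen). Group differences of Chac1 were correspondingly imprecise. The Nurr1 transgene gave the largest in size, -1.26 ± 0.77 (log2 ± SE), with a 95% interval from -2.89 to 0.37 and an limma adjusted p of 0.703. HFD against chow gave 0.84 ± 0.77 (limma adjusted p = 0.749), and -0.25 without WT-NC replicate 1, the library with the lowest level.

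**Figure D2:**
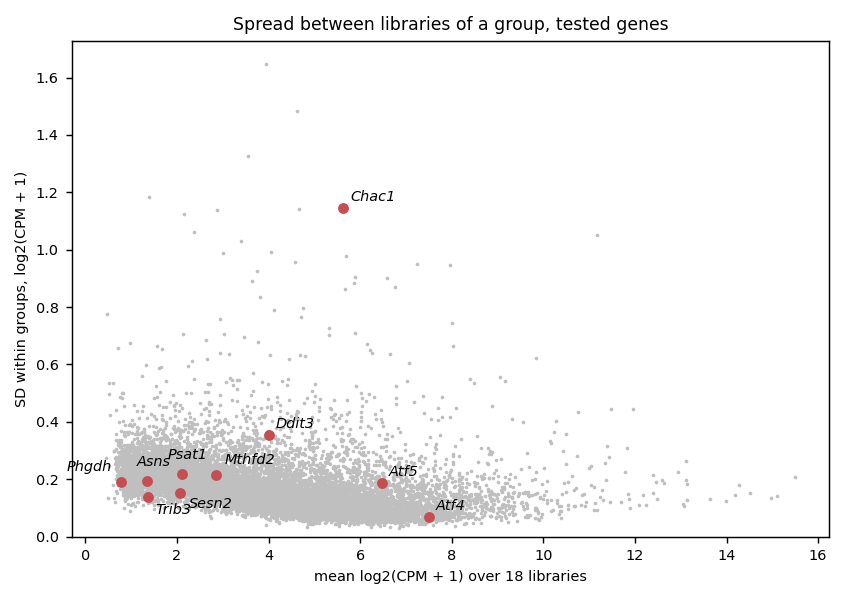
Within-group SD of log2(CPM + 1) (vertical axis) against mean log2(CPM + 1) over 18 libraries (horizontal axis) for the 12524 tested genes (grey) and the 10 response genes (red). Chac1 lies at 1.14 with 4 genes above it, and Atf4 at 0.0687 near the lower edge.

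The first comparison asked what High Fat Diet did without AQ. None of the 10 genes passed an limma adjusted p of 0.05 in HFD against chow, where 0.0479% of all tested genes did. edgeR and DESeq2 also called 0 of the 10. At an unadjusted p under 0.05, 2 of the 10 passed, both higher on HFD, against 9.53% of all genes. These were the first enzymes of serine synthesis, Psat1 and Phgdh. Psat1 encodes phosphoserine aminotransferase and was at 1.74, 2.64 and 2.38 CPM on chow and 3.25, 5.06 and 3.68 CPM on HFD. All 3 HFD libraries lay above all 3 chow libraries, with a difference of 0.61 ± 0.17 (log2 ± SE) and an limma adjusted p of 0.276. Phgdh encodes phosphoglycerate dehydrogenase, which opens the serine pathway, and was at 0.555, 0.417 and 0.257 CPM on chow and 0.692, 1.16 and 0.735 CPM on HFD. Its groups did not overlap either, with a difference of 0.40 ± 0.17 and an limma adjusted p of 0.457. Without WT-HFD replicate 2 the differences were 0.46 for Psat1 and 0.29 for Phgdh. Markers of other cell types were higher beside them: the median difference was 0.85 for 10 adipocyte markers (9 above 0), 0.34 for 10 fibroblast and matrix markers (10 above 0) and 0.32 for 8 leukocyte markers (8 above 0), with 7, 3 and 2 past the unadjusted threshold and 0 past the adjusted one with limma. The endothelial list was higher too, with a median of 0.19, 9 of 10 markers above 0, 3 past the unadjusted threshold and 0 past the adjusted one. The part of these cells in the difference was not tested. Over the 10 genes the median difference was 0.12 with 8 above 0, beside a median of all tested genes of 0.00.

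The next comparison asked what AQ did on High Fat Diet, where the serine enzyme genes again had the smallest p-values of the 10. None of the 10 genes passed the adjusted threshold, against 0.0479% of all genes. edgeR called 0 of the 10, and DESeq2 called 0 of the 9 it gave an adjusted p, Phgdh being without one. Unadjusted, 2 of the 10 passed and both were lower with AQ, against 11.8% of all genes. Psat1 was at 3.06, 2.59 and 2.59 CPM with AQ, all below the 3 WT-HFD libraries, a difference of -0.40 ± 0.17 with an limma adjusted p of 0.372. Phgdh was at 0.446, 0.420 and 0.185 CPM with AQ, also all below WT-HFD, a difference of -0.46 ± 0.17 with an limma adjusted p of 0.271. Without WT-HFD replicate 2 these were -0.25 and -0.35. Adipocyte, fibroblast and leukocyte marker lists were lower with AQ as well. The median difference was -0.86 for adipocyte markers (1 of 10 above 0), -0.76 for fibroblast and matrix markers (1 of 10) and -0.28 for leukocyte markers (1 of 8). Of these, 7, 8 and 2 were past the unadjusted threshold and 0 past the adjusted one with limma. The endothelial list went the other way, with a median of 0.11, 8 of 10 markers above 0 and 1 higher past the adjusted threshold with limma. This comparison and HFD against chow share the WT-HFD libraries, so the 2 are not independent. The median difference of the 10 genes was -0.10, with 2 above 0.

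On chow, AQ left the serine enzymes without a difference past the unadjusted threshold, and other genes were the ones to do so. The adjusted threshold was passed by 0 of the 10 genes with limma or edgeR, against 1.11% of all genes with limma. DESeq2 called 0 of the 7 genes it gave an adjusted p, which left out Trib3, Asns and Phgdh. The unadjusted one was passed by 4 of the 10, 2 higher and 2 lower, against 15.5% of all genes. Lower with AQ were Ddit3, which encodes the transcription factor CHOP, and Trib3, which encodes a pseudokinase induced by ATF4 and CHOP that restrains AKT and ATF4. Ddit3 was at 12.8, 11.8 and 16.8 CPM on chow and 9.02, 11.2 and 7.32 CPM on chow with AQ, a difference of -0.54 ± 0.25 (limma adjusted p = 0.304). Trib3 was at 1.82, 1.46 and 1.86 CPM on chow and 1.06, 1.32 and 0.879 CPM with AQ, a difference of -0.38 ± 0.13 (limma adjusted p = 0.184). In both genes all 3 AQ libraries lay below all 3 chow libraries. Higher with AQ were Atf5, the transcription factor closest to ATF4, and Sesn2, whose product senses leucine and restrains mTORC1. Atf5 was at 70.6, 79.2 and 76.7 CPM on chow and 99.4, 97.5 and 86.8 CPM with AQ, a difference of 0.32 ± 0.13 (limma adjusted p = 0.261). Sesn2 was at 1.98, 2.64 and 3.15 CPM on chow and 3.38, 3.77 and 3.44 CPM with AQ, a difference of 0.35 ± 0.14 (limma adjusted p = 0.228). These groups did not overlap. With the GC trend removed, the limma adjusted p was 0.680 for Atf5 and 0.532 for Sesn2, beside 0.450 for Ddit3 and 0.122 for Trib3. In the same comparison all 8 leukocyte markers were above 0, with a median difference of 0.48, and 2 of them rose. Adipocyte and fibroblast markers had medians of 0.20 and 0.20, with 0 past the adjusted threshold and 2 and 3 past the unadjusted one. All 10 endothelial markers were above 0, with a median of 0.20 and 2 higher past the adjusted threshold with limma.

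Under AQ the diet comparison gave the clearest member of the set. Ddit3 was higher on HFD with AQ (24.0, 19.0 and 18.4 CPM, mean 20.4 ± 3.1, SD, n = 3) than on chow with AQ (9.02, 11.2 and 7.32 CPM, mean 9.17 ± 1.9, SD, n = 3; limma adjusted p = 0.0102). The groups were separated by a wide gap, and the difference was 1.08 ± 0.25 on the log2 scale, 2.12-fold, with a 95% interval from 0.56 to 1.61. The adjusted p was 0.0131 with edgeR and 0.000561 with DESeq2. Leaving out WT-NC-AQ replicate 3 ended the call (0.95, limma adjusted p = 0.0588), and leaving out any other of the 6 libraries did not. Ddit3 was 1 of 10 genes past the adjusted threshold, against 10.6% of all genes, a share close to this background. The unadjusted threshold was passed by 3 of the 10, 2 higher and 1 lower, against 25.4% of all genes. Besides Ddit3 these were Trib3, higher on HFD with AQ (2.10, 1.54 and 1.48 CPM, a difference of 0.37 ± 0.13, limma adjusted p = 0.0855), and Atf5, lower there (79.9, 82.4 and 61.9 CPM, a difference of -0.34 ± 0.13, limma adjusted p = 0.113). Trib3 crossed the adjusted threshold under 3 other settings, with an adjusted p of 0.0465 without the variance trend, 0.0121 with library quality weights and 0.0264 with the GC trend removed. Trib3 did not cross it with edgeR (0.0850), DESeq2 (0.208), only the groups compared (0.141) or any library left out (0.0661 to 0.290). Atf5 crossed the threshold, at 0.0496, when only the groups compared were fitted, and was at 0.402 with the GC trend removed. Atf4 differed by -0.05 and Chac1 by 0.03 in the same comparison. This comparison, AQ on chow and the interaction share the WT-NC-AQ libraries, so the 3 are not independent. Both Ddit3 and Trib3 had their lowest group mean in WT-NC-AQ, without overlap with the next group in order. Of the marker genes, 1 of 10 fibroblast and matrix markers rose and 4 fell, 1 of 8 leukocyte markers fell and 1 of 10 adipocyte markers fell, with medians of -0.50, -0.42 and -0.29. Of 10 endothelial markers 1 rose, with a median of 0.10.

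The exons of Ddit3 overlap those of Mars, the methionyl-tRNA synthetase gene on the opposite strand, and those of Atf5 overlap Nup62, a nuclear pore gene on the opposite strand. Il4i1, which also overlaps the exons of Atf5, and Gm4189, which overlaps those of Ddit3, both on the opposite strand, were not analysed here. Whether the counting used strand was not given in the sources used here, so reads in the overlaps cannot be assigned to either gene. Mars was at 73.7 ± 7.8 CPM on HFD with AQ and 81.8 ± 3.3 CPM on chow with AQ (SD, n = 3), a difference of -0.15 with an limma adjusted p of 0.358. Nup62 moved the same way as Atf5, with differences of -0.42 for HFD against chow under AQ (limma adjusted p = 0.00723), 0.27 for AQ on chow (limma adjusted p = 0.159) and 0.28 between the untreated HFD groups (limma adjusted p = 0.0897). The part of the overlaps in the values of Ddit3 and of Atf5 was not tested. Phgdh has 1 annotated pseudogene named after it, with which reads could be shared.

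The interaction compared the effect of AQ between diets directly. The adjusted threshold was passed by 0 of the 10 genes with limma or edgeR, against 0.711% of all genes with limma, and with DESeq2 by 0 of 9, Phgdh having no adjusted p. The unadjusted threshold was passed by 5 of the 10, against 14.1% of all genes. In 2 of them, Ddit3 (0.95 ± 0.35, limma adjusted p = 0.230) and Trib3 (0.43 ± 0.19, limma adjusted p = 0.322), the AQ difference was more positive on HFD. In 3 it was more negative on HFD: Phgdh (-0.73 ± 0.24, limma adjusted p = 0.167), Psat1 (-0.54 ± 0.24, limma adjusted p = 0.327) and Atf5 (-0.41 ± 0.19, limma adjusted p = 0.347). The CHOP and TRIB3 genes and the serine enzyme genes thus had interactions of opposite sign, none of them past the adjusted threshold. The marker lists had negative interactions too, with a median of -1.44 for adipocyte markers (0 of 10 above 0), -0.9996 for fibroblast and matrix markers (2 of 10 above 0, 3 past the adjusted threshold and negative) and -0.73 for leukocyte markers (0 of 8 above 0). Over the 10 genes the median interaction was -0.25, with 2 above 0, beside 0.01 for all tested genes.

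**Figure D3:**
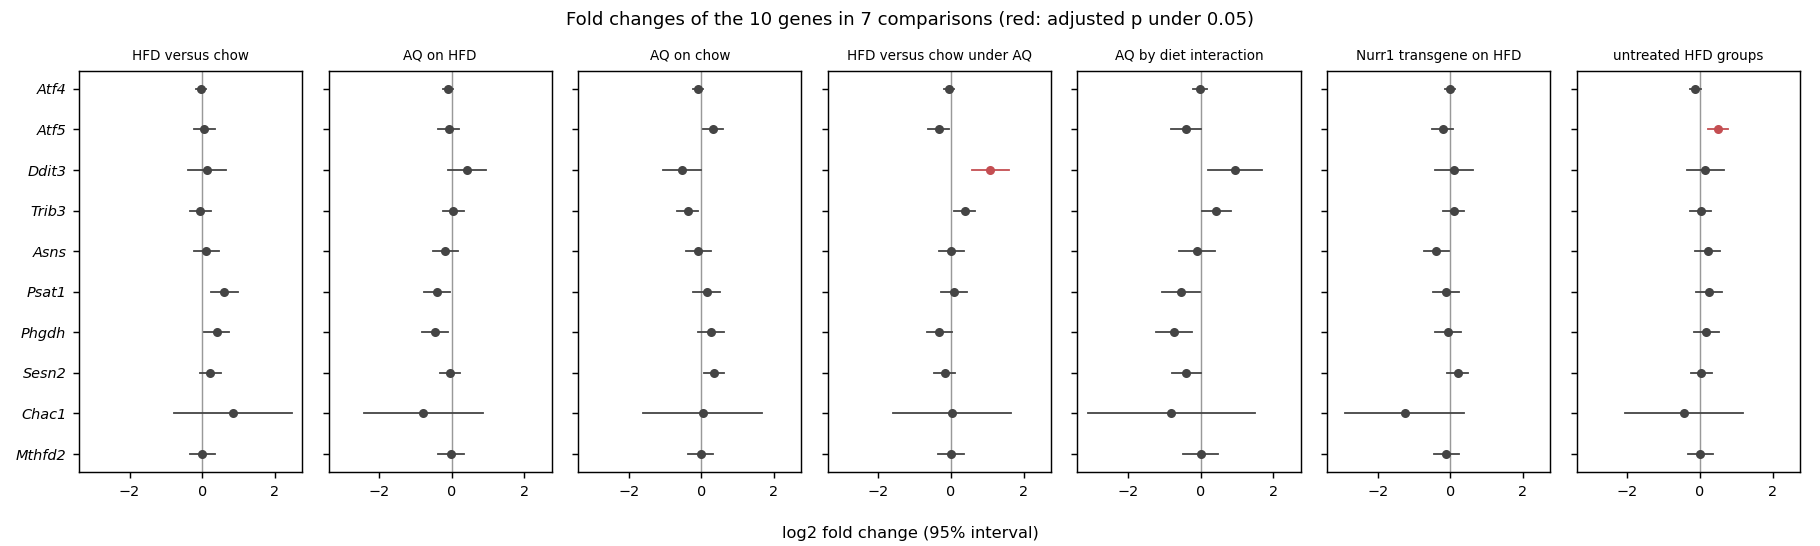
Log2 fold change of log2(CPM + 1) with its 95% interval (horizontal axes) for the 10 genes (vertical axis) in 7 comparisons; the transgene panel is HFD-Nurr1-mTg minus HFD-WT, the last panel HFD-WT minus WT-HFD, and red marks an limma adjusted p under 0.05. Red marks are Ddit3 in HFD against chow under AQ, at 1.08, and Atf5 between the untreated HFD groups, at 0.50.

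The Nurr1 transgene left the 10 genes without a call. The adjusted threshold was passed by 0 of the 10 with limma, edgeR or DESeq2, against 0.599% of all genes with limma, and the unadjusted one by 1 of 10, against 8.95%. That gene was Asns, which encodes asparagine synthetase, the classic amino acid response target. It was at 2.95, 1.75 and 1.79 CPM in HFD-WT and 1.63, 1.20 and 1.34 CPM in HFD-Nurr1-mTg, so that all 3 transgenic libraries lay below all 3 controls. The difference was -0.39 ± 0.16 (limma adjusted p = 0.468), on 18 to 46 reads a library. Asns was highest in HFD-WT replicate 1, the library of its group with the highest leukocyte (179 CPM) and fibroblast (4348 CPM) marker sums, and without it the difference was -0.22 (limma adjusted p = 0.744). Over the 18 libraries the Pearson r of Asns was 0.252 with the leukocyte sum and 0.518 with the fibroblast sum, neither past adjustment. With the fibroblast sum it was 0.0556 without the 2 farthest libraries. The part of these cells in the difference of Asns was not tested. Ddit3 was at 16.6, 19.4 and 14.6 CPM in the control and 13.3, 26.5 and 16.8 CPM in the transgenic mice, overlapping, with a 95% interval from -0.42 to 0.62 for the difference. The interval was -0.48 to 0.24 for Psat1, -0.41 to 0.29 for Phgdh and -0.08 to 0.49 for Sesn2, whose 3 transgenic libraries were at 4.29, 3.59 and 3.81 CPM. All 8 leukocyte markers were above 0 here, with a median of 0.23 and 0 past either threshold.

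The 2 untreated HFD groups, HFD-WT and WT-HFD, were compared because both are labelled wild type on the same diet. Atf5 was higher in HFD-WT (100, 120 and 116 CPM, mean 112 ± 11, SD, n = 3) than in WT-HFD (66.1, 91.2 and 80.9 CPM, mean 79.4 ± 13, SD, n = 3; limma adjusted p = 0.0435). The difference was 0.50 ± 0.13 on the log2 scale, and the groups did not overlap. It was the only 1 of 10 genes past the adjusted threshold, against 4.46% of all genes, and the only 1 past the unadjusted threshold, against 20.2% of all genes. The call held with edgeR (0.0456) and DESeq2 (0.0139). It was lost without any 1 of the 6 libraries (adjusted p from 0.0506 to 0.156), with libraries rescaled to equal totals (0.0602), without the variance trend (0.0679), when only these groups were fitted (0.0998) and with the GC trend removed (0.158). Atf5 has the highest GC content of the 10 transcripts, 61.7%, and Ddit3 the lowest, 45.6%. Fibroblast and matrix markers had a median difference of 0.35 between these groups, and 2 of 10 were higher in HFD-WT past the adjusted threshold. The levels of Atf5 in HFD-Nurr1-mTg, 79.5, 115 and 98.5 CPM, spanned the gap between these groups.

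Mthfd2, which encodes a mitochondrial folate enzyme that is a common marker of the response in mitochondrial disease, showed no order among groups. Its group means lay between 5.90 and 6.42 CPM, its libraries between 4.81 and 8.13 CPM, and all groups overlapped their neighbours. For the 10 genes, some neighbours in the order of group means did not overlap. The share of such neighbours over all genes was not computed, so their number is not read as a result. Ddit3 on chow lay above chow with AQ, Trib3 on HFD above chow with AQ, Psat1 on HFD above HFD with AQ and Phgdh on chow with AQ above chow.

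Members varied together in few pairs. Of 45 pairs over the 18 libraries, 29 had a Pearson r above 0, and r ranged from -0.263 to 0.791 with a median of 0.113. After Benjamini-Hochberg adjustment over the 45 pairs, 1 passed: Psat1 with Phgdh (r = 0.791, permutation p = 0.00012, adjusted p = 0.0054, Spearman's rho = 0.804, permutation p = 0.00012, adjusted p = 0.0054). Without the 2 libraries farthest from the median of Psat1 it was 0.777, and with each group centred on its mean 0.504. Ddit3 with Trib3 gave r = 0.669 (permutation p = 0.00236, adjusted p = 0.0531, rho = 0.498, permutation p = 0.037, adjusted p = 0.343), and 0.354 without the 2 farthest libraries, so that this relation rests on them. Atf4 did not vary with its listed targets in any pair past adjustment, and its r with Atf5 was -0.085 over all libraries and 0.737 with groups centred.

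**Figure D4:**
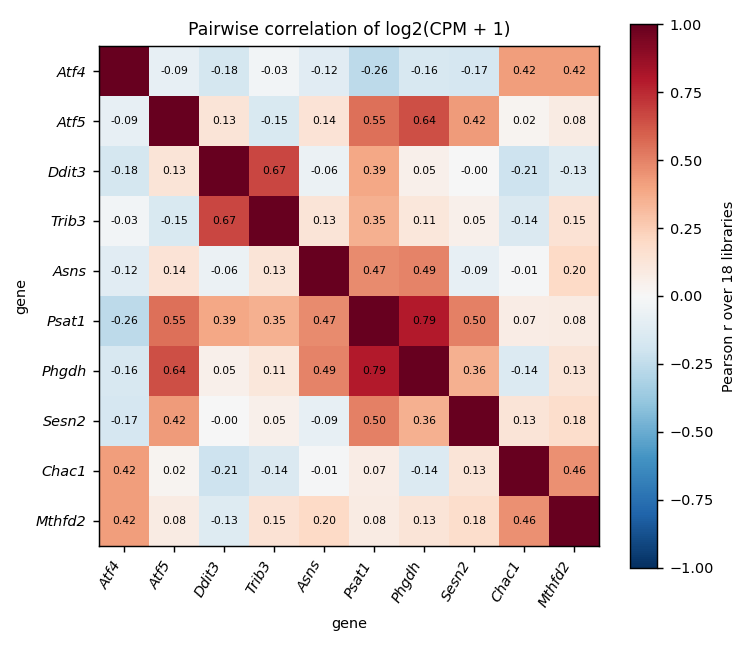
Pearson r of log2(CPM + 1) over 18 libraries for each pair of the 10 genes (both axes; colour from -1 to 1, r printed in each cell). The highest cell is Psat1 with Phgdh, at 0.791, and the median over 45 pairs is 0.113.

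The serine enzyme genes varied with markers of some other cell types, and Sesn2 with leukocyte markers. Of a list of 10 leukocyte markers 8 were in the table and none was at 0. Their summed level was 95.3 to 102 CPM on chow, 109 to 138 CPM on HFD, 97.0 to 103 CPM on HFD with AQ and 122 to 180 CPM on chow with AQ. It was 108 to 179 CPM in HFD-WT and 139 to 167 CPM in HFD-Nurr1-mTg. Over the 18 libraries this sum was related to Phgdh with r = 0.704 (permutation p = 0.0012, adjusted p = 0.0445 over 50 relations of 5 sums with 10 genes) and rho = 0.765 (permutation p = 0.00041, adjusted p = 0.0103). The r was 0.719 without the 2 farthest libraries and 0.462 with groups centred. For Sesn2 it was 0.677 (permutation p = 0.00178, adjusted p = 0.0445, rho = 0.767, permutation p = 0.00041, adjusted p = 0.0103), with 0.681 without the 2 farthest libraries and 0.304 with groups centred. For Psat1 it was 0.628 (permutation p = 0.00609, adjusted p = 0.0609, rho = 0.666, permutation p = 0.00349, adjusted p = 0.0349), with 0.654 without the 2 farthest libraries and 0.693 with groups centred. The summed fibroblast and matrix markers gave r = 0.649 with Phgdh and 0.642 with Psat1 (permutation, both with an adjusted p of 0.0507), and 0.0620 and 0.186 with groups centred. Sesn2 gave 0.359 with this sum and 0.421 with that of adipocyte markers, neither past adjustment. The endothelial sum gave 0.269 with Phgdh, 0.144 with Psat1 and 0.138 with Sesn2, none past adjustment. With groups centred these were 0.711, 0.249 and -0.431. Of the 10 adipocyte markers none was at 0, but Car3, which muscle fibres also express, supplied 81.8% to 92.8% of their sum. This sum gave r = 0.578 with Phgdh (permutation p = 0.0118, adjusted p = 0.0844, rho = 0.668, adjusted p = 0.0349) and 0.598 with Psat1 (permutation p = 0.00816, adjusted p = 0.0680, rho = 0.647, adjusted p = 0.0406), and 0.148 and 0.247 with groups centred. Beside Car3, the highest marker of this list was Fabp4, at 136 to 285 CPM over the 18 libraries. Without Car3 the other 9 summed to 215 to 356 CPM on chow, 400 to 465 CPM on HFD, 287 to 373 CPM on HFD with AQ and 257 to 313 CPM on chow with AQ. In HFD-WT they summed to 292 to 591 CPM and in HFD-Nurr1-mTg to 377 to 421 CPM. That sum gave r = 0.766 with Phgdh (permutation p = 0.0002, adjusted p = 0.01, rho = 0.808, adjusted p = 0.00512) and 0.735 with Psat1 (permutation p = 0.00056, adjusted p = 0.014, rho = 0.771, adjusted p = 0.00512). These were 0.682 and 0.675 without the 2 farthest libraries and 0.741 and 0.366 with groups centred. These relations were chosen after the values were seen, and the part of these cells in the differences of Phgdh, Psat1 and Sesn2 was not tested.

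**Figure D5:**
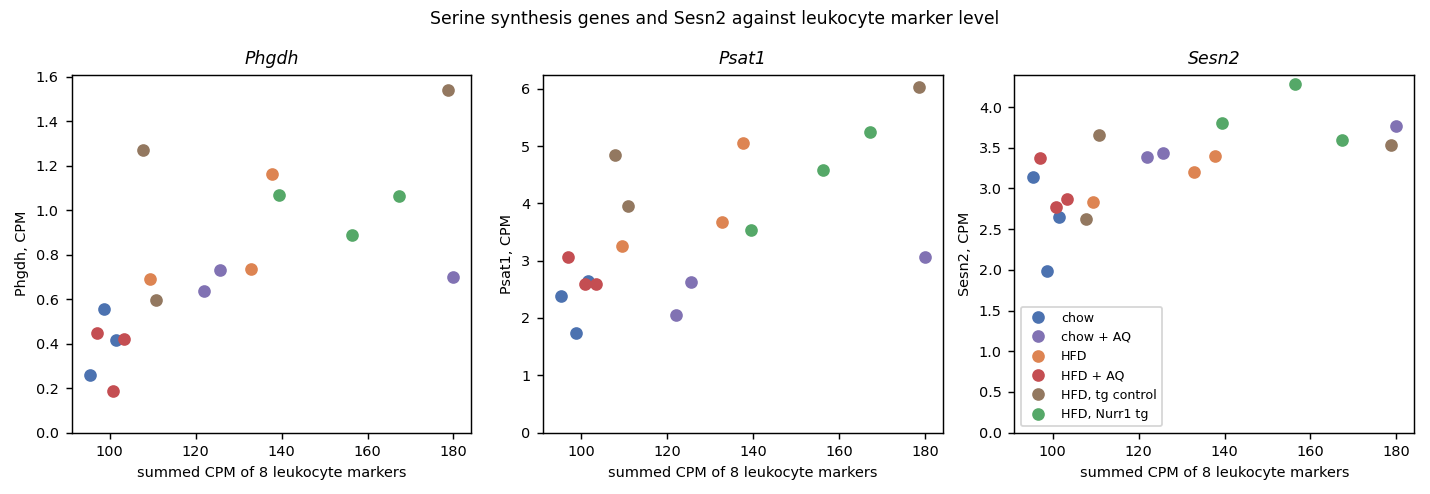
CPM of Phgdh, Psat1 and Sesn2 (vertical axes, starting at 0) against the summed CPM of 8 leukocyte markers (horizontal axes) in 18 libraries, coloured by group. Libraries of chow and of HFD with AQ sit at the lower left, with marker sums from 95.3 to 103 CPM and Phgdh from 0.185 to 0.555 CPM.

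The wider pathway was read from 77 listed genes in 10 groups, of which 72 were in the table and tested. Slc7a11, Slc7a3, Cbs, Fgf21 and Gdf15 were not analysed here. In HFD against chow, AQ on HFD, AQ on chow, the interaction and the transgene comparison, 0 of the 72 passed the adjusted threshold with limma or edgeR. The number past the unadjusted one was 5, 12, 10, 11 and 7 in that order. Beside these, 9.53%, 11.8%, 15.5%, 14.1% and 8.95% of all genes passed it with limma. DESeq2 called 1 in AQ on HFD, Atf3, and 1 in the interaction, Ppp1r15a, among the 68 to 72 genes it gave an adjusted p in these comparisons. In HFD against chow under AQ limma called 8 of the 72, edgeR 7 and DESeq2 9, where limma called 10.6% of all genes, a share close to that of the list. Between the untreated HFD groups limma and edgeR each called 1, where limma called 4.46% of all genes. DESeq2 called 5 of 65 with an adjusted p, a count not set against its own share of all genes.

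At the top of the pathway under AQ, 1 of 4 sensor kinase genes fell on HFD against chow. Eif2ak1, the haem-regulated kinase, was at 63.2 ± 2.0 CPM on HFD with AQ and 73.1 ± 2.9 CPM on chow with AQ (SD, n = 3; -0.21, limma adjusted p = 0.0301). The call was lost without any of 5 of the 6 libraries (the exception being WT-NC-AQ replicate 2), without the variance trend, with only these groups fitted and with libraries rescaled to equal totals (-0.14, limma adjusted p = 0.211). None of 8 eIF2 and eIF2B subunit genes passed, and the smallest p belonged to Eif2b5 (-0.19, limma adjusted p = 0.0977). Of 3 eIF2 phosphatase genes 1 fell, Ppp1r15a, whose product GADD34 directs a phosphatase to eIF2 and so reverses the response. It was at 24.7, 23.9 and 21.1 CPM on HFD with AQ and 55.4, 42.0 and 44.4 CPM on chow with AQ. The difference was -0.99 ± 0.13 (limma adjusted p = 0.000215), and the call held without each of the 6 libraries, with adjusted p from 0.000536 to 0.00216. Ppp1r15a is a target of ATF4 and CHOP, and its sign here was opposite to that of Ddit3.

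Further down, 0 of 5 partner factor genes were called in any of the 7 comparisons. Atf3, an early stress factor, had the smallest p of them, for AQ on HFD: 3.50, 6.51 and 4.44 CPM with AQ and 22.1, 245 and 7.89 CPM without (-2.70, limma adjusted p = 0.225), and -1.33 without WT-HFD replicate 2. It was called with DESeq2 (adjusted p = 0.00882) and without WT-HFD replicate 3 (limma adjusted p = 0.0362). In WT-HFD replicate 2, with the highest Atf3, Ddit3 was at 13.2 CPM and Trib3 at 1.58 CPM, both inside the range of their group. Atf4 (202 CPM), Chac1 (147 CPM) and Mthfd2 (8.13 CPM) had their highest level of the 18 libraries there. Atf5, Asns, Psat1, Phgdh and Sesn2 had the highest level of their group there. None of 7 amino acid transporter genes passed in any comparison, with the smallest p for Slc3a2 in the interaction (-0.32, limma adjusted p = 0.232). None of 12 tRNA synthetase genes passed in any comparison with limma, with the smallest p for Nars between the untreated HFD groups (-0.18, limma adjusted p = 0.0889; 0.0437 with DESeq2).

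Of 10 further serine, one-carbon and proline genes, 1 rose and 1 fell on HFD against chow under AQ. Mthfd1l, a mitochondrial formate-producing enzyme gene, was at 2.23, 1.68 and 1.57 CPM on HFD with AQ and 0.846, 0.422 and 0.366 CPM on chow with AQ (0.88 ± 0.19, limma adjusted p = 0.00806). Aldh18a1, which encodes the first enzyme of proline synthesis, was at 4.29 ± 0.78 and 7.14 ± 0.81 CPM (SD, n = 3; -0.63 ± 0.15, limma adjusted p = 0.0140). The Aldh18a1 call was lost without WT-HFD-AQ replicate 2 (limma adjusted p = 0.0618), WT-HFD-AQ replicate 3 (0.0572) or WT-NC-AQ replicate 3 (0.0646). Among 6 secreted and growth genes 1 fell, the cell cycle inhibitor gene Cdkn1a, at 8.03, 8.82 and 5.36 CPM against 18.9, 26.6 and 22.6 CPM (-1.51 ± 0.31, limma adjusted p = 0.00580). The Mthfd1l and Cdkn1a calls held without each of the 6 libraries.

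Chaperone genes were called in both directions. Under AQ, 1 of 12 endoplasmic reticulum chaperone genes fell on HFD, the lectin chaperone gene Calr (-0.27, limma adjusted p = 0.0152), which was lost with libraries rescaled to equal totals (0.138) and without WT-HFD-AQ replicate 3 (0.0663) or WT-NC-AQ replicate 2 (0.0632). Of 5 mitochondrial chaperone genes 2 rose, Hspd1 (83.4 ± 5.2 against 61.9 ± 4.3 CPM, SD, n = 3; 0.42, limma adjusted p = 0.0310) and Hspa9 (628 ± 9.6 against 472 ± 55 CPM, SD, n = 3; 0.42, limma adjusted p = 0.0445). Both were lost without any of 5 of the 6 libraries, with limma adjusted p reaching 0.134 for Hspd1 and 0.160 for Hspa9, the exception being WT-NC-AQ replicate 2. Hspa9 was also lost with edgeR (0.0526), without the variance trend (0.0628) and with the GC trend removed (0.0833). Between the untreated HFD groups Dnajb9, an endoplasmic reticulum co-chaperone gene, was lower in HFD-WT (31.6, 32.6 and 33.0 CPM) than in WT-HFD (46.5, 55.4 and 37.3 CPM; -0.49, limma adjusted p = 0.0120). That call was lost without WT-HFD replicate 2, the library with the high heat shock sum (-0.35, limma adjusted p = 0.0727), with only these groups fitted (0.121) and with the GC trend removed (0.0606).

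Among the genes whose pattern over the 18 libraries was most like Atf4 by Pearson r were N6amt2 (0.876) and Fam92a (0.808). Those most like Asns were Nav3 (0.822), Slc37a2 (0.706) and Ptp4a1 (0.699). None of these genes is among the 77 listed pathway genes.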

How the data were processed

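Skeletal muscle RNA of 18 libraries was read from a single end over 50 bases, per the labels' protocols. TopHat2 2.0.12, edgeR and the builds GRCm38 and mm10 are named in the submitters' processing notes; counter, annotation, strand and gene filter: not given in the sources used here. Values deposited by the authors are scaled CPM, a normalized signal per gene whose library totals ran from 929993 to 1071538. Dividing by the value of 1 read gave whole reads for 100% of values (tolerance 1e-06 reads). From these, differences were tested with limma 3.58.1 (R 4.3.3) on log2(CPM + 1), with a variance trend, 6 groups in 1 fit, 12524 genes and Benjamini-Hochberg adjustment at 0.05. Fold changes are on this scale, which understates low genes. Alternatives were edgeR 4.0.16 and DESeq2 1.42.0 on the recovered reads, other pseudocounts, filters and scalings, library quality weights, a GC correction (GENCODE M21, 12489 genes matched), a replicate block and leaving out each library. Same-numbered libraries had deviations correlated between -0.21 and 0.31, so numbers were not treated as pairs. Correlations used 100000 permutations. Intervals cover counting error and the spread between libraries only as the model estimates it. Members and lists were chosen with earlier results of these data known. Named pathway genes were up to 4 called genes a list and comparison by smallest p, or the smallest p of a list with no call; markers were read as sums. Calculations were tested on simulated data. One of the genes the naming rule selects is not reported here.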

Additional observations from a re-analysis of the deposited data

How the results depend on the processing

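The 10 genes had 0 calls in HFD against chow, AQ on HFD, AQ on chow, the interaction and the transgene comparison under every setting run, though DESeq2 gave no adjusted p for Phgdh in AQ on HFD, AQ on chow and the interaction, nor for Trib3 and Asns in AQ on chow. In HFD against chow under AQ, 2 were called without the variance trend, with library quality weights, with only the groups compared and with the GC trend removed, and 0 to 1 with a library left out. Between the untreated HFD groups, 0 were called with libraries rescaled to equal totals, without the variance trend, with only these groups, with the GC trend removed and with any library left out. With a pseudocount of 0.25, 2 member pairs passed adjustment. Of 651 refits of 33 named fold changes, 601 kept direction and call, 41 lost the call, 8 gained it and 1 reversed (Chac1 on HFD against chow, -0.25 without WT-NC replicate 1; its range with a library left out was -0.25 to 1.56). The cause of these changes was not tested.

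Over all genes, the number called moved by over 1.5 times as follows. HFD against chow, 6 genes, gave 3 with libraries rescaled to equal totals, 2 without the variance trend, 62 with quality weights, 2 with only the groups compared, 47 with DESeq2 and 0 to 40 with a library left out. AQ on HFD, 6, gave 75 with quality weights, 1 with only the groups compared, 143 with DESeq2 and 0 to 224 with a library left out. AQ on chow, 139, gave 43 rescaled, 52 without the trend, 1030 with weights, 12 with only the groups compared, 280 with DESeq2, 18 with GC removed and 13 to 113 with a library left out. HFD against chow under AQ, 1324, gave 2612 with weights and 573 to 1130 with a library left out. The interaction, 89, gave 32 rescaled, 31 without the trend, 275 with weights, 229 with DESeq2, 25 with GC removed and 3 to 103 with a library left out. The transgene comparison, 75, gave 121 with weights, 171 with DESeq2 and 43 to 72 with a library left out. The untreated HFD groups, 559, gave 96 with only these groups, 273 with GC removed and 145 to 748 with a library left out.

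With the replicate block, 12 genes were called for HFD against chow, 49 for AQ on HFD, 120 for AQ on chow, 1418 for HFD against chow under AQ, 107 for the interaction, 87 for the transgene and 571 between the untreated HFD groups, and no call among the 10 genes changed. Between 2 and 3 of 6 libraries in a comparison correlated best with their own number. Phgdh rested on 2 to 24 reads a library, and no detection limit was computed at this depth. Leaving Car3 out of the adipocyte sum, an alternative chosen after seeing the data, brought its r with Phgdh (0.766) and Psat1 (0.735) past adjustment.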

Other observations

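Beyond the comparisons, the genes closest in pattern to the other response genes were read off after their values were seen, as descriptions over 18 libraries with no test. Ddit3 was closest to Trim7 (r = 0.891), Dgat2 (0.836), which encodes an enzyme of triglyceride synthesis, and G0s2 (0.811), which encodes an inhibitor of triglyceride lipolysis. Dgat2 was also among the 3 genes closest to Trib3 (0.758). Phgdh was closest to Mfge8 (0.927), Mrap (0.910) and Ptrf (0.906), and Psat1 to Arpc1b (0.886), Tmem45b (0.884) and Myo1f (0.881). Chac1 was closest to Mfsd7b (0.821), Penk (0.806) and Rps21 (0.790). Among the genes with a larger within-group SD than Chac1, Cish ran from 3.94 to 105 CPM, Socs1 from 0.514 to 24.9 CPM and Myh3 from 5.18 to 86.3 CPM.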
